A study of Zea mays with 4 samples.

Results

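The microRNAs (miRNAs) miR399 and miR827 were described in small RNA libraries of the maize inbred line B73. The members were all known miRNAs whose name starts with zma-miR399 or zma-miR827, taken by name whatever their counts. There were 11 such names among the 161 known miRNAs of the table, and they had 7 of its 72 distinct mature sequences, 6 for miR399 (10 names) and 1 for miR827. Mature pollen (MP) was shaken from tassels, and germinated pollen (GP) was the same kind of pollen after 30 min in liquid medium. Mature silks (MS), the receptive stigmas and styles of maize, reached about 5 cm out of the bracts. Pollinated silks (PS) were such silks 30 min after an excess of active pollen was put on them, harvested once loose grains had been shaken off. All tissues came from B73, with 1 library each, and the number of plants behind a library is not given in the sources used here. By the study's own account PS still held adhering pollen and pollen tubes. The table holds small RNAs and no marker mRNAs, so the tissue labels could not be checked against markers, and fewer cells of a type and less RNA per cell cannot be told apart.

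Both miRNAs are known from the response of plants to phosphate starvation. In Arabidopsis, miR399 rises when phosphate is short, travels in the phloem and represses PHO2, a ubiquitin-conjugating enzyme that limits phosphate uptake and its loading into the xylem. miR827 also rises under low phosphate, and it represses NLA, a ubiquitin ligase, in Arabidopsis and transporters with SPX and MFS domains in rice. The MYB factor PHR1 activates genes of both families in Arabidopsis.

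The 7 mature sequences are shown because the miR399 reads divide among near-identical forms. A sequence held by several names is written with all their letters, so that miR399e/i/j stands for zma-miR399e, zma-miR399i and zma-miR399j, and miR399b and miR827 stand for zma-miR399b and zma-miR827 alone. Each is written 5′ to 3′ with the seed (bases 2 to 8) in capitals.
miR399e/i/j: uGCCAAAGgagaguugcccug
miR399a/c/h: uGCCAAAGgagaauugcccug
miR399b: uGCCAAAGgagagcuguccug
miR399d: uGCCAAAGgagagcugcccug
miR399f: uGCCAAAGgaaauuugccccg
miR399g: uGCCAAAGgggauuugcccgg
miR827: uUAGAUGAccaucagcaaaca

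All are 21 nt long. The 6 miR399 sequences share 1 seed, and no other known or predicted entry of the table has it, nor that of miR827. The miR399 sequences differ only past the seed, in miR399f and miR399g also at a central base (11 and 10, respectively). Counted from 1 at the 5′ end, with the base of miR399e/i/j first, miR399a/c/h carries G13A, miR399d carries U14C, and miR399b carries U14C and C17U. miR399f carries G11A, G13U and U20C, and miR399g carries A10G, G13U and U20G. miR399e/i/j is thus separated by 1 mismatch from miR399a/c/h and from miR399d, as miR399d is from miR399b. No member overlapped another sequence of the table closely enough to share its reads (18 nt or more in common, shifted by no more than 2 nt). Names with the same sequence were counted separately by the authors, and miR399e had 83 reads in MS where miR399i and miR399j had 82. Each distinct sequence was therefore measured once, by the name with the most reads.

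Levels are given as reads and as TPM, the reads divided by the clean reads of the library and scaled to parts per 1000000. The libraries held 3638941 (MP), 10575042 (GP), 5775303 (MS) and 5205129 (PS) clean reads, so 1 read equals 0.275, 0.0946, 0.173 and 0.192 TPM, respectively. For ratios, 3 reads stood in for a count of 0, a floor of 0.824, 0.284, 0.519 and 0.576 TPM in the same order. A ratio against this floor is written as "at least" and leaves out the counting error of the other library, which the exact lower limit beside it includes. Values in parentheses after a level, share or ratio are exact 95% intervals. They, like the floors, cover counting error alone. Reads amplified by PCR without molecular identifiers are not independent, so the counting error may be larger than these intervals show. No difference has a replicate check, as each tissue has 1 library, and each test compares the reads of 2 libraries rather than the conditions. Only 4 of the 7 sequences, miR827, miR399e/i/j, miR399a/c/h and miR399b, reached 10 reads in a library.

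miR827 was by far the most abundant member, and its reads lay almost wholly in silks. MP held 2 of its reads, GP 0, MS 5057 and PS 10530. This equals 0.550 TPM in MP (0.0666 to 1.99), 876 TPM in MS (852 to 900) and 2023 TPM in PS (1985 to 2062). The silk libraries were high and the pollen libraries were at or near the detection limit, with no overlap of their intervals. Among the distinct known sequences miR827 ranked 6 of the 57 detected in MS and 4 of the 62 detected in PS, with 2.72% and 5.62% of the reads of known sequences. In MP it ranked 29 of 38. From the lowest level to the highest the order was GP, MP, MS and PS, of which GP and MP could not be told apart (Fisher's exact test, p = 0.0655).

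miR399e/i/j was the leading miR399 sequence of silks. Neither pollen library held a read of it (0 and 0), against 83 reads in MS and 39 in PS, which is 14.4 TPM in MS (11.4 to 17.8) and 7.49 TPM in PS (5.33 to 10.2). The intervals of the silk libraries did not overlap, and MS was the higher. It ranked 26 in MS and 29 in PS. miR399a/c/h, which differs from it at base 13, had 0 reads in both pollen libraries, 17 in MS and 20 in PS. Its levels were 2.94 TPM in MS (1.71 to 4.71) and 3.84 TPM in PS (2.35 to 5.93), and these overlapped.

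miR399b had the opposite distribution. It was read 0 times in MP and 24 times in GP, but 4 times in MS and 2 times in PS, which is 2.27 TPM in GP (1.45 to 3.38), 0.693 TPM in MS (0.189 to 1.77) and 0.384 TPM in PS (0.0465 to 1.39). GP was the high library, although its interval and that of MS overlapped slightly. In GP it ranked 13 of the 46 sequences detected, against 45 in MS and 52 in PS. The 0 reads in MP allow a level of up to 0.824 TPM, so miR399b could have been present there at the level of either silk library without being detectable at this depth.

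The remaining sequences were near the detection limit. miR399f was at 0 reads in MP and 1 read in GP, with 9 reads in MS and 4 in PS. miR399d had 0, 2, 1 and 1 reads, and miR399g had 1 read in GP and none elsewhere. No order of the libraries can be read from miR399d or miR399g at these counts. Summed over its 6 sequences, miR399 had no reads in MP, 28 in GP (2.65 TPM, 1.76 to 3.83), 114 in MS (19.7 TPM, 16.3 to 23.7) and 66 in PS (12.7 TPM, 9.81 to 16.1).

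**Figure D1:**
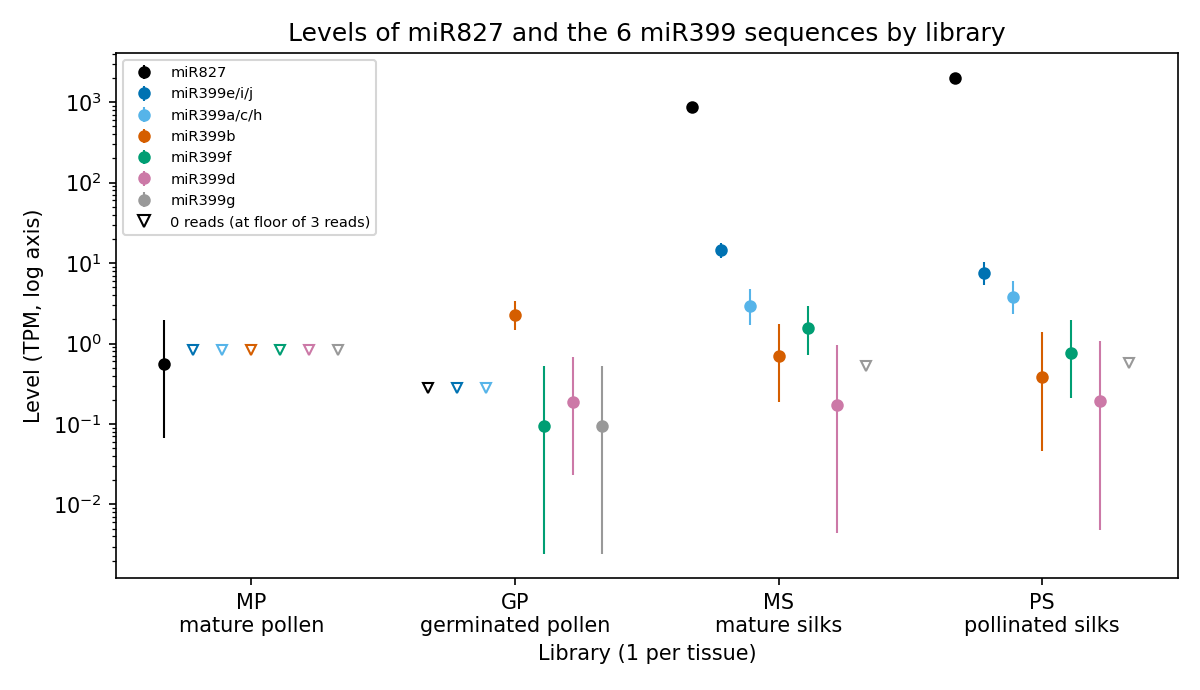
Level of each member in the 4 libraries, in TPM on a log axis, with exact 95% intervals of counting error as bars and open triangles at the floor of 3 reads for a count of 0. The silk levels of miR827 are 876 TPM (MS) and 2023 TPM (PS), and miR399b is the only miR399 sequence above 1 TPM in a pollen library, at 2.27 TPM in GP.

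Silks and pollen were compared before contact (MS against MP) and after germination or pollination (PS against GP). In MS against MP, 3 of the 7 members were higher and 0 lower (called at p under 0.01 by Fisher's exact test with a log2 ratio above 1.5 or below -1.5), where 45.8% of all 72 distinct known sequences were called, 44.4% as higher and 1.39% as lower. miR827 was 1593-fold higher in MS (441 to 13159). miR399e/i/j was at least 17.4-fold higher (adjusted p = 1.13e-17 by Fisher's exact test over the 72 sequences), and the exact lower limit of its ratio was 13.9. miR399a/c/h was at least 3.57-fold higher (exact lower limit 2.60, adjusted p = 0.000598 by Fisher's exact test). The share of members called was close to that of all sequences. The 5 members with a ratio had a median log2 ratio of 1.84, which is the bound of miR399a/c/h. The 46 sequences with a ratio had a median of 3.18, with counts of 0 at their floor in both medians.

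In PS against GP, 3 of the 7 members were higher and 1 lower, where 59.7% of all sequences were called, 56.9% as higher and 2.78% as lower. miR827 was at least 7131-fold higher in PS (exact lower limit 5798), miR399e/i/j at least 26.4-fold (20.5) and miR399a/c/h at least 13.5-fold (10.0). For miR827 the p was too small for the software to hold in both silk-pollen comparisons. For miR399e/i/j and miR399a/c/h in PS against GP, adjusted p by Fisher's exact test was 4.07e-19 and 4.78e-10. miR399b went the other way. It was 5.91-fold higher in GP than in PS (1.47 to 51.6, adjusted p = 0.00868 by Fisher's exact test). It was 1 of 2 called lower in PS among the 72 sequences tested, and its log2 ratio of -2.56 was the second lowest of 56. miR399f, with 4 reads against 1, did not pass (8.13-fold, 0.804 to 400.2). Median log2 ratios were 3.76 over 5 members, which is the bound of miR399a/c/h against 0 reads, and 3.19 over 56 sequences.

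The silk-pollen ratios carry the low share of known miRNAs in pollen. The known sequences together held 19853 reads (MP) and 44105 reads (GP) in pollen against 186020 (MS) and 187429 (PS) in silks. Scaling to these totals moved every log2 ratio by -2.56 in MS against MP and by -3.11 in PS against GP. On that scale miR827 and miR399e/i/j stayed called in both comparisons, at log2 ratios of 8.08 and 1.56 in MS against MP and 9.69 and 1.61 in PS against GP, and miR399a/c/h was no longer called in either. Under TMM and the median ratio, which scale by the bulk of the sequences, miR399e/i/j was no longer called in MS against MP either (log2 ratios of 0.76 and 0.59). The calls over all sequences went from 32 higher and 1 lower to 15 and 5 in MS against MP (12 and 5 under TMM, 11 and 5 under the median ratio), and from 41 and 2 to 23 and 12 in PS against GP (23 and 12 under TMM, 25 and 12 under the median ratio). As a share of known reads, the miR399 sum was 0.0635% in GP (0.0422 to 0.0917), 0.0613% in MS (0.0506 to 0.0736) and 0.0352% in PS (0.0272 to 0.0448). The intervals of GP and MS overlapped widely on this scale.

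**Figure D2:**
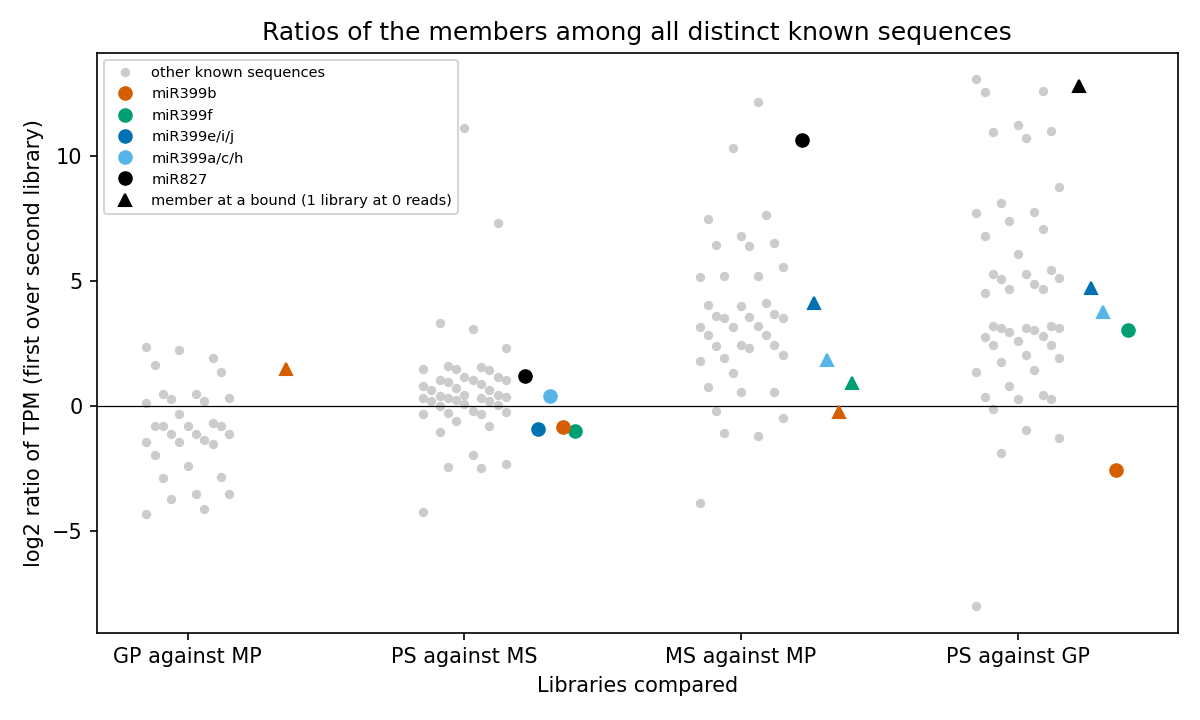
log2 ratio of TPM for every distinct known sequence with a ratio in the 4 comparisons (grey, some of them also bounds), with the members in color and triangles for members with 0 reads in 1 library. miR827 lies near the top of both silk-pollen comparisons, at 10.64 and 12.80, and miR399b lies near the bottom of PS against GP, at -2.56.

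Germination was addressed by GP against MP. No member passed the limits, where 12.5% of all sequences did, 2.78% as higher and 9.72% as lower, or 2 and 7 sequences. miR399b came closest. Its 24 reads in GP against 0 in MP gave a level at least 2.75-fold higher in GP, a log2 ratio of 1.46 just under the limit of 1.5 (exact lower limit 2.07-fold, adjusted p = 0.00791 by Fisher's exact test). This was the fifth highest log2 ratio of 34, and the median of the 34 was -0.80. The result turns on the 0 in MP. With 1 read added to each count the log2 ratio was 3.10 and the limits were passed, as they were under TMM (2.87), the median ratio (2.58) and the total of known reads (1.85). TMM and the median ratio moved every log2 ratio by 1.41 and 1.12, and under them calls among all sequences turned from mostly lower to mostly higher, at 10 higher and 1 lower under TMM and 5 higher and 2 lower under the median ratio. The other members had at most 2 reads in either pollen library, so that no ratio is given.

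Pollination was addressed by PS against MS. A sequence was called higher at a log2 ratio over 1.5 with a silk count over 10 times that of a pollen library, and lower at a log2 ratio under -2, with p under 0.01 in both cases. No member was called, where 13.9% of all sequences were, 8.33% as higher and 5.56% as lower. These 6 higher and 4 lower calls became 4 and 4 under TMM and known reads and 4 and 5 under the median ratio. The higher calls include both miR171b and miR171f, which may share reads. The members nevertheless differed from each other. miR827 was 2.31-fold higher in PS (2.23 to 2.39), a log2 ratio of 1.21, and the p by Fisher's exact test was too small for the software to hold. It ranked 11 of 52 from the highest. miR399e/i/j was 1.92-fold lower in PS (1.30 to 2.88, adjusted p = 0.00188 by Fisher's exact test), a log2 ratio of -0.94 and the eighth lowest of 52. Both intervals excluded equal levels, but both ratios fell short of the limits on size. For miR399a/c/h the ratio of PS to MS was 1.31 (0.649 to 2.65), for miR399b 0.555 (0.0502 to 3.87) and for miR399f 0.493 (0.111 to 1.77), and each of these intervals holds both a rise and a fall. The miR399 sum was 0.642 of its MS level in PS (0.467 to 0.877, p = 0.00444 by Fisher's exact test). Median log2 ratios were -0.85 over 5 members and 0.37 over 52 sequences. The median of the members is the ratio of miR399b, which rests on 2 reads in PS and 4 in MS.

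**Figure D3:**
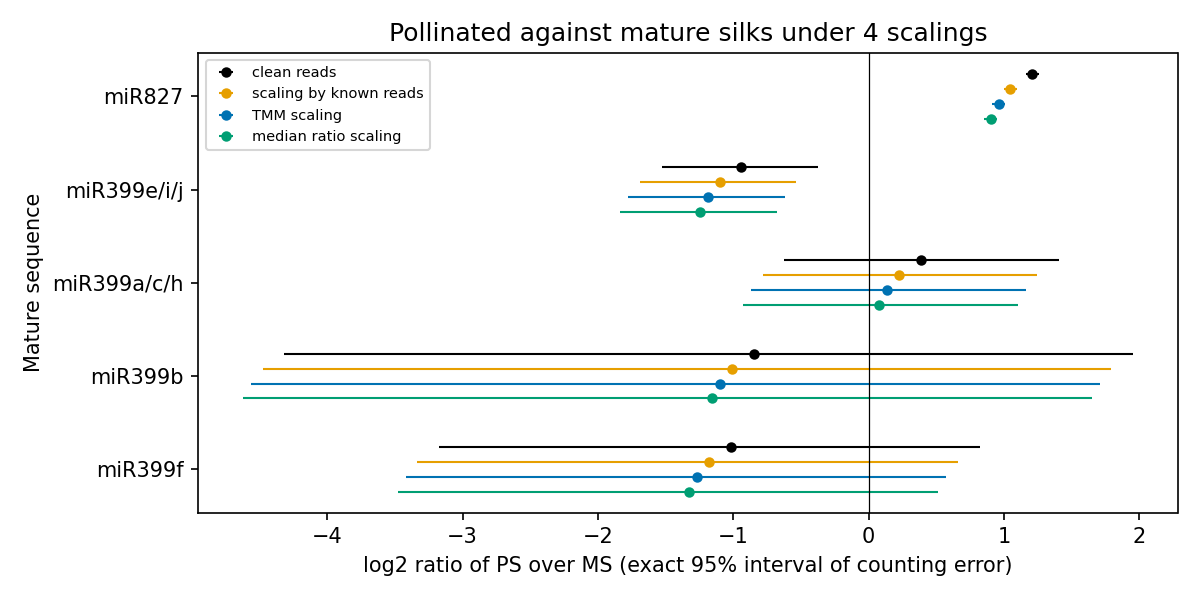
log2 ratio of PS over MS for the 5 members with a ratio, with exact 95% intervals of counting error, under scaling by clean reads, known reads, TMM and the median ratio. miR827 stays above 0 and miR399e/i/j below 0 under each scaling, while the intervals of the other 3 hold 0.

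The change of miR827 relative to miR399 in silks was also measured as a ratio within each library, which needs no scaling but does not give the direction of either miRNA. There were 44.4 miR827 reads for each miR399 read in MS and 159.5 in PS. The odds ratio of PS to MS was 3.60 (2.63 to 4.96, p = 5.54e-17 by Fisher's exact test). Against miR399e/i/j alone it was 4.43. It was not taken against miR399a/c/h alone, which had 17 reads in MS and 20 in PS. The value for the sum therefore need not hold for each miR399 sequence. PS differed from MS by its adhering pollen too, and GP had 0 miR827 reads and 0 miR399e/i/j reads. The part of pollen RNA in the difference was not tested.

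The make-up of the miR399 reads differed between germinated pollen and silks. miR399b took 24 of the 28 miR399 reads in GP, or 85.7% (67.3 to 96.0), against 3.51% (0.964 to 8.74) in MS and 3.03% (0.369 to 10.5) in PS. miR399e/i/j took 0 of 28 in GP (exact upper limit 12.3%), against 72.8% (63.7 to 80.7) in MS and 59.1% (46.3 to 71.0) in PS. Of the 18 tests made over 6 sequences and 3 pairs of libraries, 5 had an adjusted p under 0.05. Those of miR399b were 7.12e-18 for GP against MS and 3.65e-15 for GP against PS, and those of miR399e/i/j were 9.55e-13 and 2.91e-08 (Fisher's exact test). The fifth was miR399a/c/h in GP against PS, 0 of 28 against 30.3% (19.6 to 42.9), with an adjusted p of 0.00197 by Fisher's exact test. Between MS and PS no share passed. That of miR399a/c/h was 14.9% (8.93 to 22.8) in MS and 30.3% in PS, with an odds ratio of 2.47 (1.11 to 5.54) and an adjusted p of 0.0625 by Fisher's exact test. MP had no miR399 reads to divide. These shares do not depend on how the libraries were scaled, but those of GP rest on 28 reads.

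**Figure D4:**
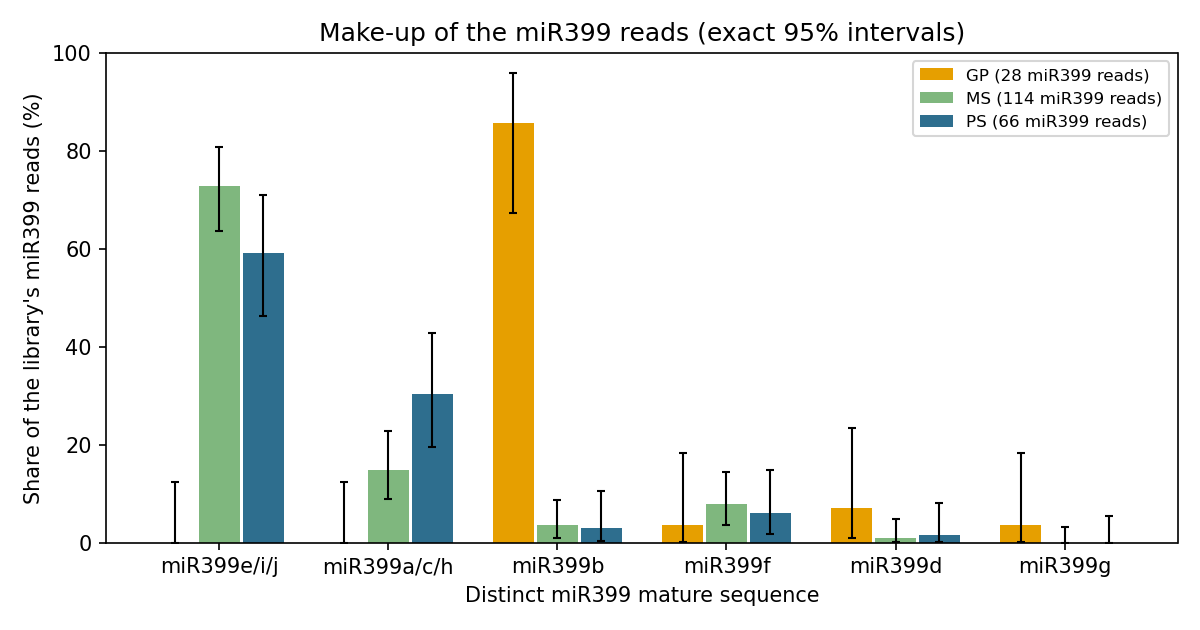
Share of the miR399 reads of GP, MS and PS taken by each of the 6 sequences, in percent, with exact 95% intervals as bars. miR399b holds 85.7% in GP and at most 3.51% in silks, where miR399e/i/j holds 72.8% in MS and 59.1% in PS.

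Likeness of profile was measured as the Euclidean distance of log2 levels (1 read added, centered on the mean over the 4 libraries) to the 50 other distinct known sequences with at least 10 reads. The profile of miR827 was nearest to those of miR164a/b/c/d/g, miR169c/r and miR169a/b, at distances of 1.98, 2.93 and 3.47, where the median distance was 8.71. The nearest, miR164a/b/c/d/g, had 4, 0, 29333 and 12740 reads in MP, GP, MS and PS. It was thus lower in PS than in MS (log2 ratio -1.05), where miR827 was higher (1.21), as were miR169c/r (0.72) and miR169a/b (0.64). The profile of miR399e/i/j was nearest to miR164h (0.612), miR319a/b/c/d (0.826) and miR171l/m (1.47), with a median of 3.35. miR164h, for example, had 0 reads in both pollen libraries, 82 in MS and 64 in PS. miR399b was nearest to miR529 (1.39), miR398a/b (1.97) and miR396e/f (2.81), with a median of 5.58. miR529 had 1, 15, 2 and 2 reads in MP, GP, MS and PS. These distances rest on 4 libraries and, for the low sequences, on few reads.

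Other families known from nutrient starvation were counted for comparison. They were miR395 (sulfate), miR397, miR398, miR408 and miR528 (copper) and miR169 (nitrogen), with 16 distinct sequences. The phosphate families miR2111 and miR778 have no entry among the known miRNAs of the table. In GP against MP, 0 of the 16 were higher and 1 lower, where 2.78% and 9.72% of the 72 sequences were. In PS against MS, 4 were higher and 0 lower, beside 8.33% and 5.56% of all. In MS against MP 5 were higher and 0 lower (44.4% and 1.39% of all), and in PS against GP 10 were higher and 0 lower (56.9% and 2.78%). Their median log2 ratio in PS against MS was 1.02 over 11 sequences, beside 0.37 over 52 sequences, 1.21 for miR827 and -0.94 for miR399e/i/j. The miR169 family alone gave 8 of the 16 sequences, 6 of these 11 ratios and 2 of the 4 higher calls in PS against MS.

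Target sites were predicted by the authors and carry no read counts. Each of miR399a/c/h, miR399b, miR399d and miR399e/i/j has 4 predicted target genes, and 3 of these, GRMZM2G070591, GRMZM2G165734 and AC209981.3, are common to all. The site lies at bases 71 to 91 of the listed transcript of GRMZM2G070591 and of that of GRMZM2G165734. The fourth gene is GRMZM2G470766 for miR399b, miR399d and miR399e/i/j, with a site at 93 to 113, but GRMZM2G075384 for miR399a/c/h, with a site at 103 to 123. miR399b, which had most miR399 reads in GP, and miR399e/i/j, which had most in MS and PS, thus have the same predicted genes. miR399f and miR399g have none. The only predicted target gene of miR827 is GRMZM2G157422. A single site is listed for each of its transcripts, at bases 1977 to 1997 of T03 and 2416 to 2436 of T01. The reference gene table lists it as LOC542512 with the synonyms EMF-like and vef101, names of the VEFS-box polycomb family. The identifiers of the 5 predicted genes of miR399 found no match in that table, which is built on another assembly, so they are given without names. No other entry of the table is predicted to target any of these 6 genes.

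The miRNA genes themselves are annotated in the reference gene table, which uses another assembly (Zm-B73-REFERENCE-NAM-5.0) than the files, so that only their neighbors are given. All 11 members have a gene there. MIR399a and MIR399g are direct neighbors, MIR399f and MIR399c have no gene wholly between them, and MIR399h and MIR399i have 1. Each of the 3 genes with the miR399a/c/h sequence thus has at most 1 gene wholly between it and a MIR399 gene with another sequence. Distances in bases were not measured. Since miR399a/c/h and miR399e/i/j each come from 3 genes with the same mature sequence, their reads cannot be assigned to single genes, while those of miR399b, miR399d, miR399f, miR399g and miR827 belong to 1 named gene each.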

How the data were processed

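Small RNA libraries of MP, GP, MS and PS were made and sequenced by the authors, 1 for each tissue. The authors mapped clean reads to the B73 genome (release 5a.59) with SOAP and identified known miRNAs by Blastn against miRBase 18.0. The deposited counts are whole reads per miRNA name, with variants of up to 2 bp added per the file headers. The deposited TPM values are these counts divided by clean reads and scaled to 1000000, not scaled by length. The deposited p-values of the authors' chi-square tests were not used. The number of unused columns with values of single samples was 0.

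Clean reads were computed from counts and TPM. Each of the 72 distinct known sequences took the counts of its name with the most reads. A 2-sided Fisher's exact test set the reads of a sequence against all other clean reads of 2 libraries (SciPy 1.17.1), and adjusted p is the Benjamini-Hochberg value over the 72 sequences, or over the 18 tests of make-up. The limits on size in GP against MP and PS against MS, the p limit in GP against MP and the read criterion for silks were those of the study. The p limit was extended here to silks and, with the log2 limit of GP against MP, to both silk-pollen comparisons, and the floor of 3 reads was added. Ratios have exact conditional binomial intervals, shares and levels Clopper-Pearson intervals. Where neither count exceeded 3 reads the ratio was left out. edgeR 4.0.16 (TMM) and DESeq2 1.42.0 (median ratio) gave scaling factors only, as no tissue has a second library from which to estimate the spread. The test was tried on simulated counts, which say nothing of the spread between libraries of a tissue. Sequences named are the members and, for 3 of them, the 3 nearest profiles. The members, lists and tests were chosen with earlier results of these data known. Alternatives covered scaling, the floor, the test, the limits, the name counted and a minimum of 10 reads.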

Additional observations from a re-analysis of the deposited data

How the results depend on the processing

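No paired analysis was possible because each tissue has 1 library. The number of members called in GP against MP was 0, and it was 1 (miR399b) under TMM, the median ratio, the total of known reads, 1 read added and a log2 limit of 1. In PS against MS it was 0, and 1 (miR827) at a log2 limit of 1. In MS against MP it was 3, and 1 (miR827) under TMM and the median ratio, where the log2 ratio of miR399e/i/j was 0.76 and 0.59. In the same comparison the log2 ratio of miR399a/c/h turned negative, at -1.52 under TMM, -1.70 under the median ratio and -0.73 under known reads, and that of miR399f at -2.44, -2.61 and -1.64. These are bounds against 0 reads in MP, so a negative value leaves the direction undetermined. With 1 read added, miR399b turned from -0.25 to 1.66 there. In PS against GP miR399f turned to -0.070 under TMM and -0.087 under known reads, and miR399a/c/h was no longer called under TMM (0.67), the median ratio (0.74) and known reads (0.65). Calls over all 72 sequences fell from 33 to 17 under TMM, to 16 under the median ratio and to 20 under known reads in MS against MP, and from 9 to 5 in GP against MP with at least 10 reads, where 21 sequences were tested. The chi-square test, the name with the fewest reads and the criterion on both pollen libraries changed no call of a member. The odds ratio of miR827 to miR399 between PS and MS kept its direction. Depth limits miR399d, miR399f and miR399g, with at most 9 reads in a library, and every statement on MP, the shallowest library.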
